A study of Mus with 9 samples.

Results

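Transcripts of the enzymes that cut and crosslink the extracellular matrix, and of the inhibitors of those enzymes, were examined in kidneys of ageing mice. The genes are the 55 protein-coding genes of the authors' table whose symbol starts with Mmp and a number or with Adamts, or is Timp1 to Timp4, Lox or Loxl1 to Loxl4. They are 55 of the 54532 genes in the table and of its 22046 protein-coding genes. They comprise 22 matrix metalloproteinases (Mmp), 4 tissue inhibitors of metalloproteinases (Timp), 24 genes of the Adamts and Adamts-like families and 5 lysyl oxidases. Of the 55 genes, 38 had enough reads to be tested, among 15902 tested genes in all. The rule uses no measured value.

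RNA was sequenced from the kidney of male C57BL/6 mice in 3 groups of 3 libraries, named 18 mo, 21 mo and 21 mo/O304. All mice had lost 1 kidney by unilateral nephrectomy at 18 months of age, so that every library comes from the remaining kidney of a one-kidney animal. Mice of the 18 mo group were killed 1 week after the operation. The 21 mo group received saline intraperitoneally for 12 weeks, and the 21 mo/O304 group received O304, an activator of the energy-sensing kinase AMPK, at 10 mg/kg/day over the same time. The comparison of 21 mo with 18 mo therefore asks about age, time after surgery and injections together, which cannot be told apart. The comparison of 21 mo/O304 with 21 mo asks about the drug. Libraries are called by group and replicate number, for example 21 mo-3, and values of a group are given in the order of replicates 1, 2 and 3.

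Matrix metalloproteinases are zinc enzymes that are made as inactive precursors, and between them they cut collagens, gelatin, elastin, proteoglycans and many cell-surface proteins. Timp proteins bind the active site of these enzymes and block it. Adamts enzymes trim procollagen and cut large proteoglycans, whereas Adamts-like proteins lack the protease domain and sit in the matrix. Lysyl oxidases oxidize lysines of collagen and elastin, which then form the crosslinks that stiffen a fibre. In the kidney these genes are known chiefly from fibrosis, where matrix collects between the tubules.

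Each library held 15636378 to 18396725 counts on genes, so that 1 count was worth 0.0458 to 0.0669 CPM, the counts scaled by library size. The 21 mo libraries differed from each other more than those of the other groups did, with a biological coefficient of variation of 44.2% against 18.1% for 18 mo and 20.6% for 21 mo/O304. Markers of other cell types differed along with them. The summed CPM of 6 injured tubule markers was 169 to 172 in the 18 mo group, 134 to 188 in the 21 mo/O304 group, and 179, 1289 and 2144 in 21 mo-1, 21 mo-2 and 21 mo-3. Of these 6, Lcn2 was at 323 CPM in 21 mo-2 and 1258 in 21 mo-3. Krt8 and Krt18 were also higher in 21 mo-3. Havcr1 went the other way, at 475 and 61.2 CPM, as did Vcam1 at 245 and 143 and Krt20 at 20.7 and 14.4. The 8 fibroblast and myofibroblast markers summed to 136, 496 and 1208 in 21 mo-1, 21 mo-2 and 21 mo-3. Col3a1 alone made up 265 of the 496 CPM in 21 mo-2. In that library Acta2 at 23.4 and Pdgfrb at 28.9 CPM lay within their 18 mo ranges. Pdgfra, at 31.4, was just above its 18 mo maximum of 30, and Col1a1, Dcn, Lum and Postn were also above their 18 mo ranges. In 21 mo-1, 21 mo-2 and 21 mo-3, 7 macrophage markers summed to 450, 508 and 1487. The 6 proximal tubule markers, which define the main cell type of kidney cortex, summed to 9986, 4854 and 1365, against 9647 to 12093 in the 18 mo group. The 5 urothelium markers summed to 3.14, 31.5 and 199, and lay between 0.555 and 2.6 in all libraries of the other groups. In RNA of a tissue, fewer cells of a type and less RNA per cell cannot be told apart.

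The median transcript level of the matrix genes followed the order of the summed injured tubule, fibroblast and macrophage markers within the 21 mo group. Relative to the 18 mo mean, the median of the 38 tested genes was −0.32 in 21 mo-1, 0.44 in 21 mo-2 and 2.05 in 21 mo-3 on the log2 CPM scale. The 3 libraries of the 21 mo/O304 group were at −0.33, −0.04 and −0.13, and those of the 18 mo group ran from −0.17 to 0.19. The medians of 21 mo/O304-2 and 21 mo/O304-3 thus lay within the 18 mo range. Those of 21 mo-1 and 21 mo/O304-1 were a little below it, that of 21 mo-2 a little above it, and that of 21 mo-3 far above it. In 21 mo/O304-1, 19 of the 38 genes (50%) lay below their own 18 mo range, beside 30.4% of all tested genes. Of the 38 genes, 29 (76.3%) had their highest level of all 9 libraries in 21 mo-3, where 28.9% of all tested genes had theirs.

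**Figure D1:**
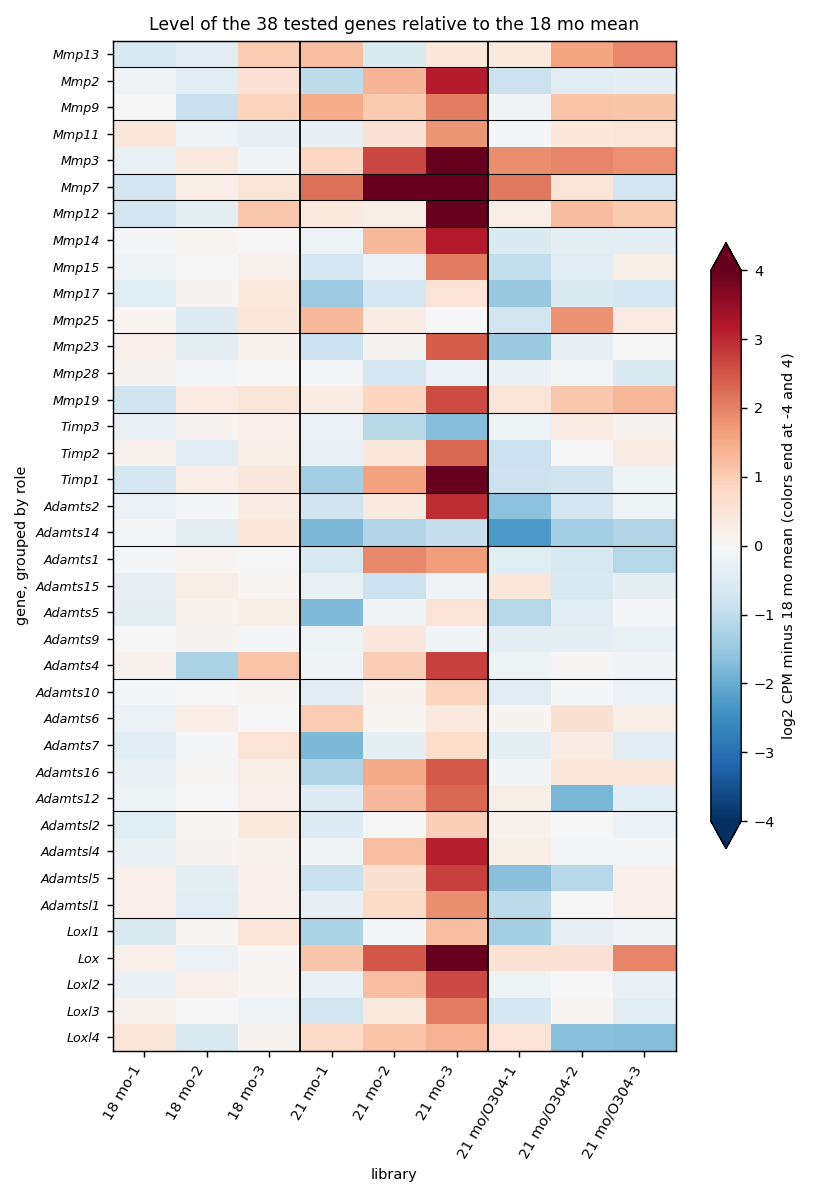
Level of each of the 38 tested genes (rows, grouped by role) in each of the 9 libraries (columns), as log2 CPM minus the mean of the 3 libraries of the 18 mo group, with colours ending at −4 and 4. The column of 21 mo-3 is the darkest red, with 29 of 38 genes at their highest level there, and 21 mo-1, with a median of −0.32, is pale like the columns of the 21 mo/O304 group.

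No gene of the 38 passed edgeR's quasi-likelihood test at a Benjamini-Hochberg adjusted p under 0.05 in any comparison, and few genes of the whole table did (0.0189% in 21 mo against 18 mo, 0% in 21 mo/O304 against 21 mo and 0% in 21 mo/O304 against 18 mo). In 21 mo against 18 mo, 31 of the 38 had a positive and 7 a negative log2 fold change, with a median of 1.15 beside 0.03 over all tested genes, and the same median with Mmp7 at its lower bound of 240-fold. At an unadjusted p under 0.05, 12 were higher and 2 lower, where 14% and 12% of all tested genes were. In 21 mo/O304 against 21 mo the signs were 5 positive and 33 negative, with a median of −1.3 beside −0.02, and 1 gene was higher and 16 lower at an unadjusted p under 0.05, against a background of 8.27% and 12.4%. These comparisons share the 21 mo libraries. Without 21 mo-3 the signs were 24 positive and 14 negative in the first comparison and 13 positive and 25 negative in the second. At an unadjusted p under 0.05, 3 genes were then higher and 2 lower in the first (10% and 12.1% of all tested genes), and 1 higher and 4 lower in the second (7.12% and 6.95%). The medians without 21 mo-3 were 0.18 and −0.24, with no gene called, and without 21 mo-1 they were 1.51 and −1.73. The groups did not overlap for 5 higher genes (Mmp3, Mmp7, Mmp9, Lox and Loxl4) and 1 lower gene (Adamts14) in 21 mo against 18 mo, where 13.5% and 15.3% of all tested genes were so separated. In 21 mo/O304 against 21 mo they did not overlap for 1 higher gene (Timp3) and 4 lower genes (Mmp7, Mmp14, Adamts9 and Loxl4), where the background was 10.8% and 10.5%.

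Other fits called part of these genes. Without 21 mo-1, the 21 mo library closest to the 18 mo group in these genes, edgeR called 19 of them in 21 mo against 18 mo and 20 in 21 mo/O304 against 21 mo, along with 25.4% and 23.1% of all genes. DESeq2, fitted without a filter on low counts, called 9, of which Mmp8 is outside the 38, beside 12.3% of the 16681 genes to which it gave an adjusted p, and 8 beside 6.07% of 15591. Limma voom with a quality weight for each library called 20 (52.9%) and 18 (41.1%). Its weights were 9.11 for 21 mo-2, 0.223 for 21 mo-1 and 0.132 for 21 mo-3, so that its 21 mo level is chiefly that of 1 library. The genes that passed in all 3 of these fits were Mmp3, Mmp7, Mmp14, Timp1, Adamtsl4, Lox and Loxl2, all higher, in 21 mo against 18 mo. In 21 mo/O304 against 21 mo they were Mmp2, Mmp7, Mmp14, Timp1, Adamts1, Adamts2, Adamtsl4 and Loxl2, all lower. The 3 fits share their libraries, and the fit without 21 mo-1 and voom take nothing or little from 21 mo-1. Passing in all 3 is therefore not independent support, and the share of all genes that did so was not computed. Mmp3 and Mmp7 also passed the filter of edgeR and voom only through libraries of the older groups.

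**Figure D2:**
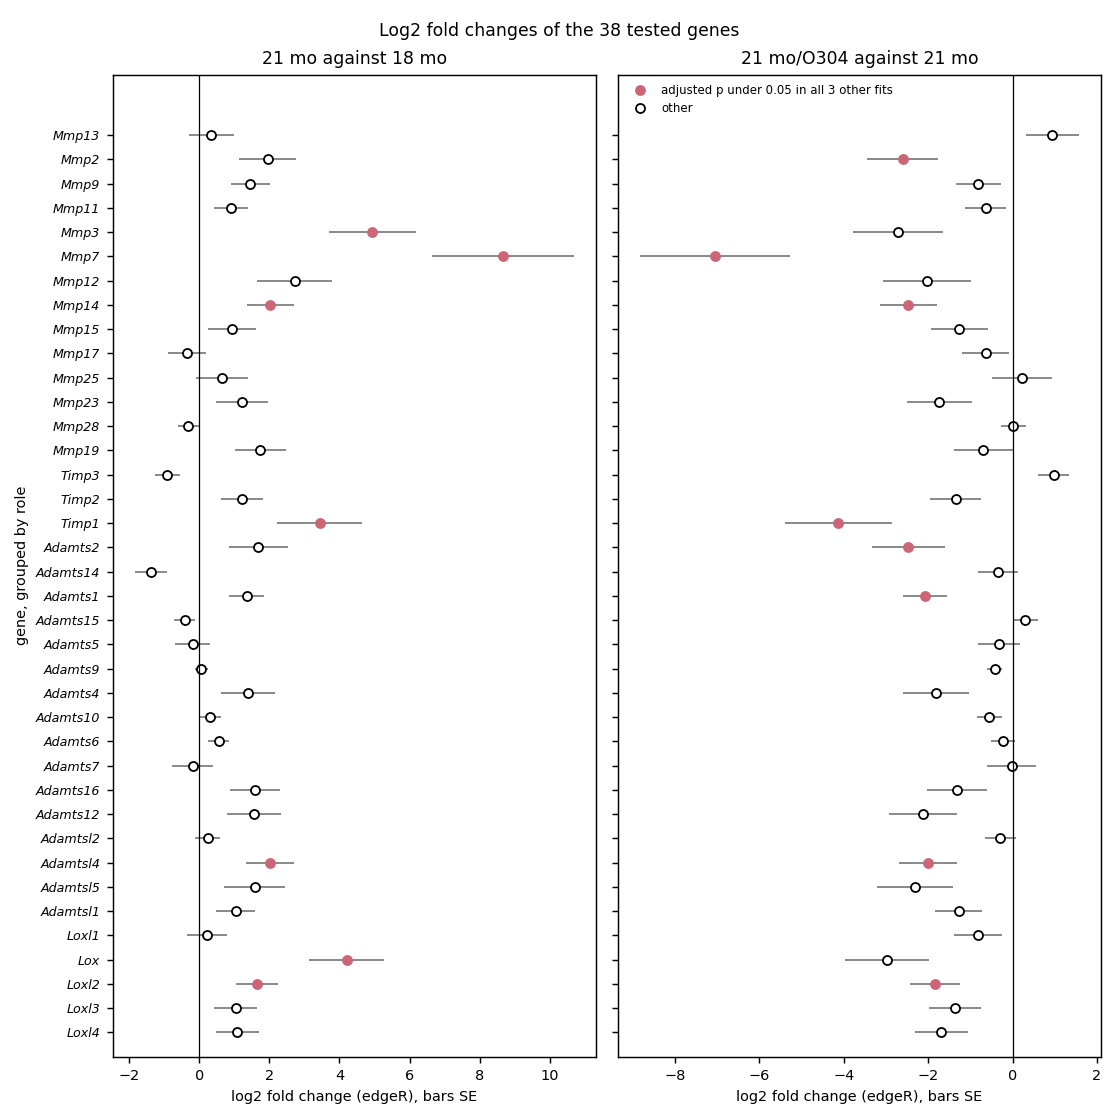
Log2 fold changes of the 38 tested genes from edgeR (points, with bars of 1 SE) in 21 mo against 18 mo (left) and 21 mo/O304 against 21 mo (right), over 3 libraries a group. Filled points are the 7 and 8 genes that passed with DESeq2, with limma voom and with edgeR without 21 mo-1. These fits share libraries and are not independent. No gene passed in edgeR with all libraries, and 31 of 38 points on the left are above 0 while 33 of 38 on the right are below 0.

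Among the metalloproteinases, Mmp7, or matrilysin, a small enzyme made mostly by epithelial cells, had the widest range of levels. It was at 0, 0.123 and 0.17 CPM in the 18 mo group, or at most 3 counts in a library, and at 0.803, 8.75 and 120 CPM in the 21 mo group. The 21 mo/O304 libraries were at 0.756, 0.179 and 0 CPM. The groups did not overlap in either comparison, although 21 mo-1 and the first library of the 21 mo/O304 group lay close together. The 21 mo mean was at least 240-fold higher than the 18 mo group, taken at a floor of 3 counts a library. That mean rested mostly on 21 mo-3. The edgeR log2 fold change of 8.66 ± 2.03 (SE) in 21 mo against 18 mo was 5.47 without that library. With all libraries the edgeR adjusted p was 0.0706, the smallest among the 38 genes. Mmp7 passed the filter on low counts through all 3 libraries of the 21 mo group and 1 of the 21 mo/O304 group. No library of the 18 mo group reached the cutoff. Its entry into the edgeR test thus rested on the group in which it was high. Its edgeR p-values in both comparisons are not independent of that. For 21 mo/O304 against 21 mo the log2 fold change was −7.05 ± 1.78 (SE, n = 3 a group) with an edgeR adjusted p of 0.175, and −3.88 without 21 mo-3. In per-length terms Mmp7 made up 56.6% of the summed FPKM, a level scaled by library size and gene length, of all Mmp genes in 21 mo-3, 28.9% in 21 mo-2 and at most 7.54% in the other libraries. The urothelium markers, which are epithelial, had the same order as Mmp7 in the 21 mo libraries, and their part in its level was not tested.

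The stromelysins Mmp3 and Mmp10 cut proteoglycans and fibronectin, and activate other metalloproteinase precursors. Mmp3 was at 0.186, 0.37 and 0.226 CPM in the 18 mo group, at 0.535, 2.22 and 21.7 in the 21 mo mice, and at 1.22, 1.31 and 1.21 in the 21 mo/O304 group. Both groups of older mice lay entirely above the 18 mo group, and the treated libraries were closely alike and inside the 21 mo range. In log2 terms Mmp3 differed by 4.94 ± 1.25 (SE) in 21 mo against 18 mo, with an edgeR adjusted p of 0.0775, and by 2.36 without 21 mo-3. Against 21 mo, the treated group differed by −2.71 ± 1.06, and by −0.14 without 21 mo-3, so that the difference rested on that library. Mmp11, a stromelysin activated inside the cell by furin, was at 5.95, 3.88 and 3.39 CPM in the 18 mo group, at 3.41, 6.48 and 14.8 in the 21 mo mice and at 4.07, 5.72 and 6.11 in the 21 mo/O304 group, with all groups overlapping. Mmp3 and Mmp7 reached 10 counts in no 18 mo library. Mmp3 passed the filter on low counts through 2 libraries of the 21 mo group and 3 of the 21 mo/O304 group. Its edgeR p-values against the 18 mo group are not independent of that. Mmp7 passed it chiefly through the 21 mo group.

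Mmp14 is a transmembrane protease that cuts collagen and, together with Timp2, activates the Mmp2 precursor. It was at 17, 19.1 and 18 CPM in the 18 mo group, at 15.6, 44.4 and 161 in the 21 mo mice, and at 12.3, 13.9 and 13.8 in the 21 mo/O304 group. The treated libraries were below all of the other 6 libraries, while 21 mo-1 was below the 18 mo group. Its log2 fold change was 2.03 ± 0.66 (SE) in 21 mo against 18 mo and −2.47 ± 0.68 in 21 mo/O304 against 21 mo, with edgeR adjusted p of 0.108 and 0.175. Without 21 mo-3 these were 0.72 and −1.16.

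Mmp2, the gelatinase made by stromal cells, was at 3.72, 2.96 and 6.11 CPM in the 18 mo group, at 1.94, 10.7 and 36.7 in the 21 mo mice and at 2.21, 2.92 and 3.06 in the 21 mo/O304 group. The 21 mo group held both the lowest and the highest of the 9 values. The log2 fold change of 21 mo/O304 against 21 mo was −2.6 ± 0.84 (SE, edgeR adjusted p 0.181), and −1.21 without 21 mo-3. Mmp9, the gelatinase known from leukocytes, was at 1.36, 0.678 and 2.66 CPM in the 18 mo group, at 4.01, 2.96 and 6.05 in the 21 mo mice and at 1.22, 3.16 and 3.06 in the 21 mo/O304 group. Here 21 mo-1 did not stand below the 18 mo level, and all 3 libraries of the 21 mo group exceeded the 18 mo group. For Mmp9 the log2 fold change was 1.46 ± 0.55 (SE, edgeR adjusted p 0.143), and 1.12 without 21 mo-3. Mmp9 passed the threshold in none of the 18 alternative settings tried.

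Mmp12, the macrophage elastase, was at 1.3, 1.73 and 4.81 CPM in the 18 mo group, at 2.94, 2.73 and 46.2 in the 21 mo mice and at 2.68, 5.42 and 4.78 in the 21 mo/O304 group. Its high value was that of a single library, and the log2 fold change of 2.72 ± 1.08 (SE) in 21 mo against 18 mo was 0.09 without 21 mo-3. The macrophage markers were also highest in 21 mo-3, and their part in this value was not tested. Mmp13, the main collagenase of rodents, was one of the few genes without a peak in 21 mo-3. It was at 1.05, 1.23 and 3.51 CPM in the 18 mo group, at 4.01, 1.08 and 2.29 in the 21 mo mice and at 2.21, 5.24 and 6.69 in the 21 mo/O304 group. All 3 groups overlapped, with log2 fold changes of 0.34 ± 0.64 and 0.94 ± 0.63 (SE) in 21 mo against 18 mo and in 21 mo/O304 against 21 mo. The first of these was −0.18 without 21 mo-1 and −0.89 with limma voom, and so had no settled sign.

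The other membrane-bound metalloproteinases had no common pattern. Mmp15, a transmembrane enzyme, was at 3.78, 4.07 and 4.64 CPM in the 18 mo group, at 2.54, 3.47 and 17.8 in the 21 mo mice and at 2.04, 3.1 and 4.9 in the 21 mo/O304 group. Mmp17, held in the membrane by a lipid anchor, was at 1.92, 2.96 and 3.62 CPM in the 18 mo group, at 0.937, 1.65 and 4.08 in the 21 mo mice and at 0.872, 1.79 and 1.66 in the 21 mo/O304 group. For Mmp17 the treated group lay entirely below the 18 mo group. Mmp25, which has the same kind of anchor and is known from leukocytes, was at 0.619, 0.37 and 0.849 CPM, at 1.61, 0.739 and 0.596, and at 0.291, 2.32 and 0.764 in the same order of groups. Mmp23, anchored by its amino-terminal end, was at 6.13, 4.13 and 5.83 CPM in the 18 mo group, at 2.88, 5.68 and 28.9 in the 21 mo mice and at 1.8, 4.17 and 5.28 in the 21 mo/O304 group. Of the 21 mo libraries, only 21 mo-3 exceeded the 18 mo range for Mmp15, Mmp17 and Mmp23. The secreted Mmp19 was low throughout, at 0.186, 0.555 and 0.622 CPM, then at 0.535, 0.852 and 3.16, and in the 21 mo/O304 group at 0.64, 1.01 and 1.21. The secreted Mmp28, or epilysin, was at 3.03, 2.65 and 2.77 CPM in the 18 mo group, at 2.74, 1.7 and 2.38 in the 21 mo mice and at 2.33, 2.74 and 1.85 in the 21 mo/O304 group, the narrowest range of the 14 tested metalloproteinases.

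**Figure D3:**
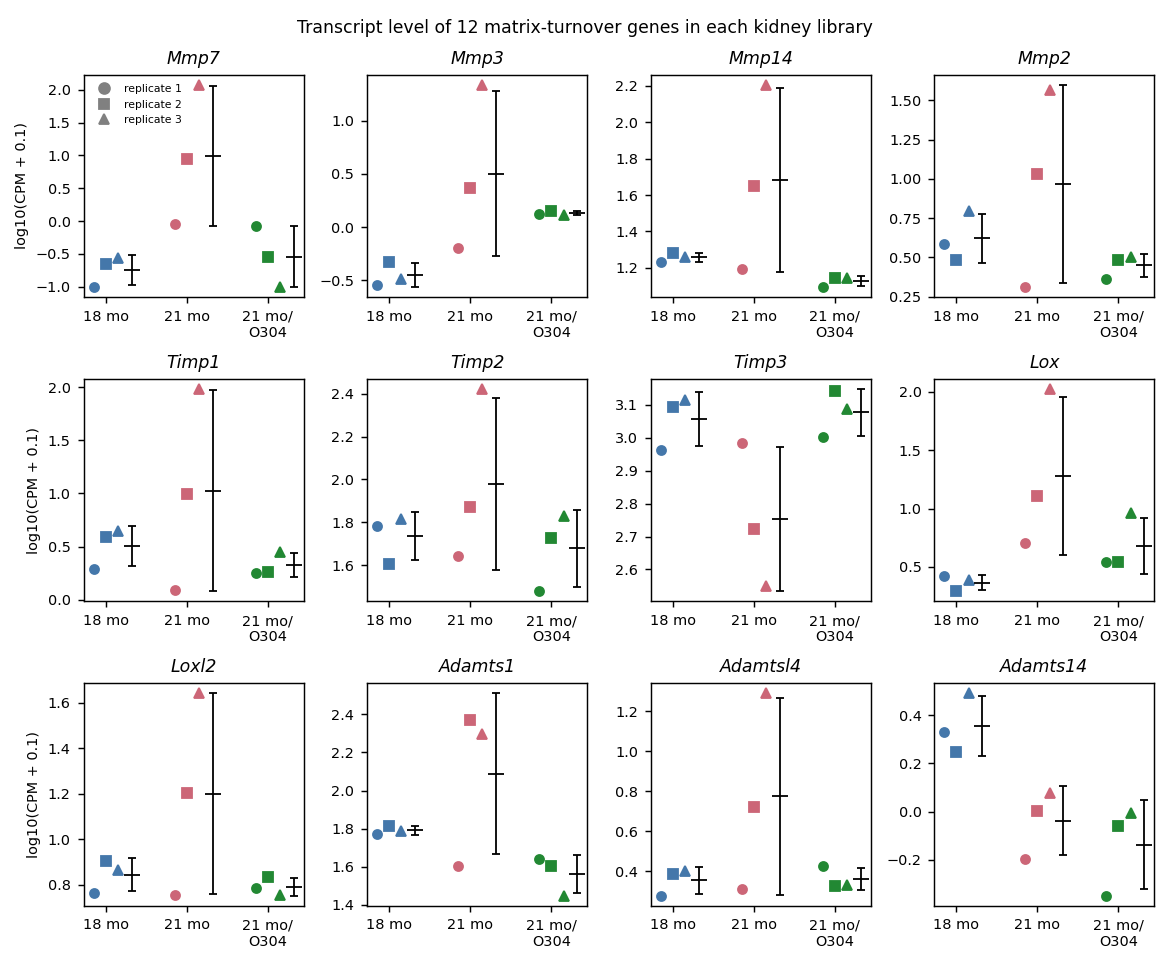
Levels of 12 of the genes in each of the 9 libraries, as log10(CPM + 0.1) on an axis that differs between genes, with the mean and SD of the log values of 3 libraries beside the points (circle, square and triangle for replicates 1, 2 and 3). In 9 panels the triangle of the 21 mo group is the highest point. Timp3 has its lowest points in 21 mo-2 and 21 mo-3, Adamts14 is highest in the 18 mo group, and Adamts1 is highest in 21 mo-2.

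Among the metalloproteinase genes, 9 lie side by side on chromosome 9, from 7272514 to 7699585 (GRCm38 coordinates of the authors' table), a stretch of 427 kb that holds no other protein-coding gene. In order they are Mmp13, Mmp12, Mmp1b, Mmp3, Mmp10, Mmp8, Mmp27, Mmp20 and Mmp7, of which 4 were tested. Neighbours in this cluster did not share 1 level or 1 pattern. The highest of the 9 libraries was 21 mo-3 for 7 of the 9 genes, and was a 21 mo/O304 library for Mmp13 and for Mmp20. Of all tested genes, 28.9% were highest in 21 mo-3. The peak in 21 mo-3 was 1 count for Mmp1b and 13 counts for Mmp27. Mmp20 had 5 counts in both 21 mo/O304-1 and 21 mo-2, so its highest library is not settled. Mmp10, the other stromelysin of the cluster, was at 4.12 CPM in 21 mo-3 and at 0.201 CPM or less in the other libraries. Mmp8, the collagenase of neutrophils, was at 1.67 CPM in 21 mo-1 and 2.61 in 21 mo-3 but at 0.0568 in 21 mo-2, and at 0.446 or less elsewhere. The 9 neutrophil markers summed to 59.2, 17.3 and 47.9 CPM in the 21 mo libraries and to between 5.3 and 20.7 in the others, and their part in the Mmp8 level was not tested.

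**Figure D4:**
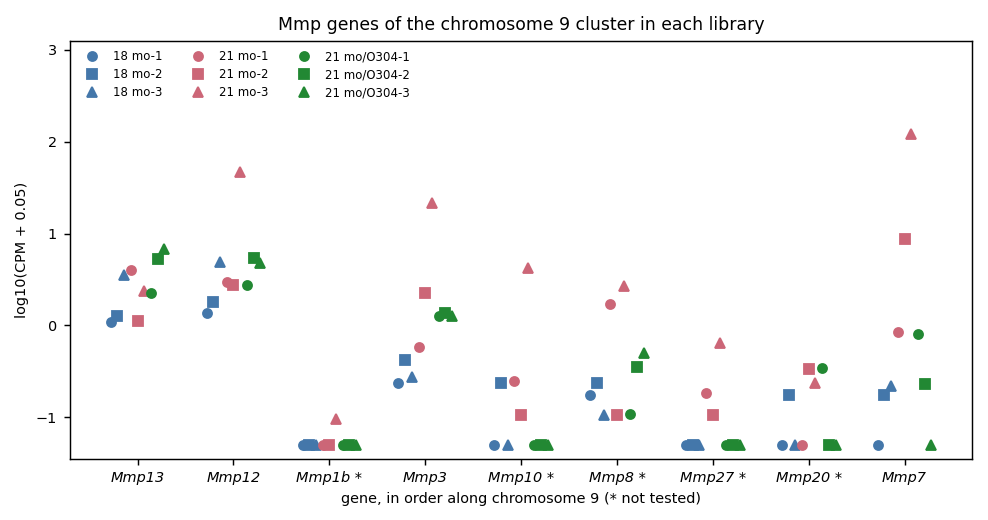
Level of the 9 Mmp genes of the chromosome 9 cluster, in their order along the chromosome, as log10(CPM + 0.05) in each of the 9 libraries (blue for 18 mo, red for 21 mo, green for 21 mo/O304, with circle, square and triangle for replicates 1, 2 and 3). An asterisk marks genes with too few reads to be tested. The red triangle of 21 mo-3 is the highest point for 7 of the 9 genes, for Mmp1b on 1 count, and Mmp7 reaches 120 CPM there.

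Timp3, which binds to the matrix and also inhibits Adamts enzymes, was the most abundant of the 55 transcripts by FPKM, with a mean of 118 over the 9 libraries. It was at 919, 1240 and 1305 CPM in the 18 mo group, at 966, 530 and 354 in the 21 mo mice and at 1003, 1392 and 1222 in the 21 mo/O304 group. All treated libraries exceeded all 21 mo libraries, by as little as 1003 against 966 CPM. Timp3 had a log2 fold change of −0.91 ± 0.36 (SE) in 21 mo against 18 mo and 0.97 ± 0.36 in 21 mo/O304 against 21 mo, with edgeR adjusted p of 0.157 and 0.2. Without 21 mo-3 these were −0.64 and 0.7. The proximal tubule markers had the same order as Timp3 in the 21 mo libraries, and their part in its level was not tested.

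Timp1, a secreted inhibitor known for its increase in injured tissue, was at 1.86, 3.76 and 4.3 CPM in the 18 mo group, at 1.14, 9.83 and 96.4 in the 21 mo mice and at 1.69, 1.73 and 2.74 in the 21 mo/O304 group. The lowest and the highest of the 9 values were both from 21 mo mice. Timp1 had a log2 fold change of 3.44 ± 1.21 (SE) in 21 mo against 18 mo and −4.13 ± 1.27 in 21 mo/O304 against 21 mo, with edgeR adjusted p of 0.124 and 0.176, and of 0.71 and −1.41 without 21 mo-3. Timp2, the partner of Mmp14 in activating Mmp2, was at 60.6, 40.2 and 65.3 CPM in the 18 mo group, at 43.6, 74.4 and 265 in the 21 mo mice and at 29.9, 53.3 and 67.3 in the 21 mo/O304 group. Only 21 mo-2 and 21 mo-3 exceeded the 18 mo range in the 21 mo group. Mmp14, Mmp2 and Timp2, the parts of this activation, all had their highest level in 21 mo-3.

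By FPKM, which is per gene length, Timp3 made up 86.5% to 91.3% of the Timp family in the 18 mo group and 88% to 92.6% in the 21 mo/O304 group. In the 21 mo libraries its share was 90.5%, 68.3% and 19.7%. In 21 mo-3 Timp1 was the first member, with 49.3%, followed by Timp2 with 30.9%. The summed FPKM of the family was 212 there against 92.4 to 181 in the other 8 libraries. The sum over the Mmp genes was 10.6 to 13.7 FPKM at 18 mo, 12, 27.5 and 191 in the 21 mo group and 9.1 to 14.3 in the 21 mo/O304 group. Timp sums thus exceeded Mmp sums in every library, by the least in 21 mo-3.

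**Figure D5:**
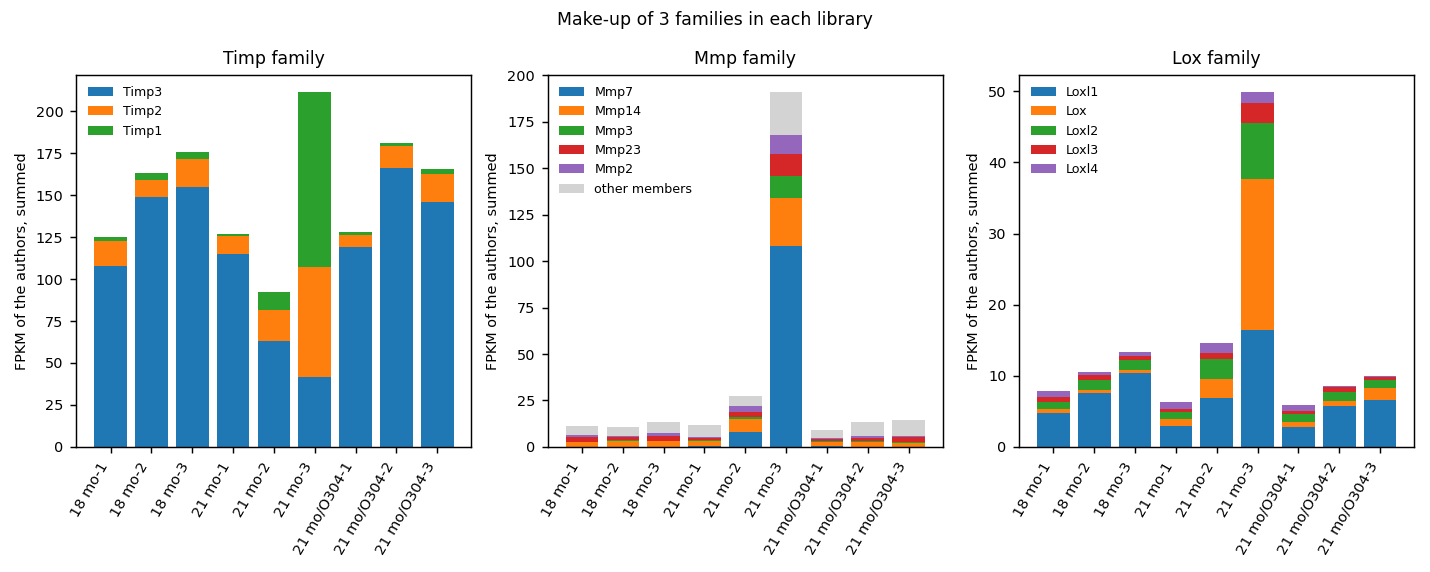
Summed FPKM of the Timp, Mmp and Lox families in each library (bars, starting at 0), split by gene, with Mmp genes outside the 5 named ones in grey. In 21 mo-3 the Timp bar is mostly Timp1 and Timp2, the Mmp bar is mostly Mmp7 at 108 of 191 FPKM, and the Lox bar is mostly Lox and Loxl1.

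The procollagen N-proteinases remove the amino-terminal propeptide of fibrillar collagens. Adamts2 was at 5.39, 5.98 and 7.69 CPM in the 18 mo group, at 3.55, 8.07 and 49.5 in the 21 mo mice and at 1.92, 3.75 and 5.41 in the 21 mo/O304 group. Its log2 fold change in 21 mo/O304 against 21 mo was −2.47 ± 0.86 (SE, edgeR adjusted p 0.189) and −0.65 without 21 mo-3. Adamts14 went the other way. It was at 2.04, 1.66 and 3 CPM in the 18 mo group, at 0.535, 0.909 and 1.1 in the 21 mo mice and at 0.349, 0.775 and 0.891 in the 21 mo/O304 group. Every library of the older groups was below every 18 mo library, and the older groups overlapped each other. Adamts14 had a log2 fold change of −1.38 ± 0.46 (SE) in 21 mo against 18 mo and −1.73 ± 0.47 in 21 mo/O304 against 18 mo, with edgeR adjusted p of 0.111 and 0.337, and of −1.63 and −1.74 without 21 mo-3.

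Adamts1, which cuts versican and aggrecan, had the highest FPKM of the Adamts genes. It was at 58.7, 65.1 and 61.2 CPM in the 18 mo group, at 39.9, 234 and 197 in the 21 mo mice and at 43.4, 39.9 and 28 in the 21 mo/O304 group. It was high in both 21 mo-2 and 21 mo-3, while 21 mo-1 lay among the treated libraries and below the 18 mo group. The log2 fold change was 1.35 ± 0.51 (SE) in 21 mo against 18 mo and −2.08 ± 0.52 in 21 mo/O304 against 21 mo, with edgeR adjusted p of 0.144 and 0.175. Without 21 mo-3 these were 1.13 and −1.87, so that Adamts1 depended less on that library than Mmp3, Timp1 or Lox did. Adamts4, Adamts5 and Adamts15 cut proteoglycans as well. Adamts4 was at 2.29, 0.801 and 4.7 CPM in the 18 mo group, at 1.87, 4.21 and 14.3 in the 21 mo mice and at 1.8, 2.15 and 1.91 in the 21 mo/O304 group. Adamts5 was at 16.7, 23.7 and 25.5 CPM, at 6.22, 19.6 and 31.7, and at 9.77, 16.1 and 20.4 in the same order of groups. Adamts15 was at 19.5, 29.5 and 25.9 CPM in the 18 mo group, at 20.1, 13.6 and 22.1 in the 21 mo mice and at 33.6, 16.2 and 18.9 in the 21 mo/O304 group. For Adamts4, Adamts5 and Adamts15 all 3 groups overlapped. Adamts9 stayed within a narrow range, at 15.2, 16.5 and 14.4 CPM at 18 mo, at 13.3, 20.6 and 14.2 in the 21 mo mice and at 11.6, 12 and 12.5 in the 21 mo/O304 group. The treated group lay below both others, with a log2 fold change against 21 mo of −0.42 ± 0.18 (SE, edgeR adjusted p 0.237).

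Among the Adamts enzymes with other or less settled substrates, Adamts16 was at 1.49, 1.91 and 2.15 CPM in the 18 mo group, at 0.736, 5.51 and 10.4 in the 21 mo mice and at 1.69, 2.5 and 2.55 in the 21 mo/O304 group. Adamts12, a relative of Adamts7 that cuts cartilage oligomeric matrix protein, was at 0.619, 0.739 and 0.849 CPM, at 0.468, 1.99 and 4.08, and at 0.872, 0.119 and 0.509. For both genes 21 mo-1 was below all 18 mo libraries and the other 21 mo libraries were above them. Adamts7 itself was at 2.54, 3.33 and 5.26 CPM in the 18 mo group, at 0.937, 2.73 and 6 in the 21 mo mice and at 2.68, 4.35 and 2.61 in the 21 mo/O304 group. Adamts10, which binds fibrillin, was at 10, 10.8 and 11 CPM in the 18 mo group, at 7.83, 11.7 and 19.7 in the 21 mo mice and at 7.91, 10.1 and 8.91 in the 21 mo/O304 group. Adamts6, its closest relative, was at 3.78, 5.42 and 4.53 CPM, at 9.3, 4.77 and 6, and at 4.88, 6.91 and 5.28. Adamts6 was thus highest in 21 mo-1. In that library 20 of the 38 genes (52.6%) lay below the 18 mo range, beside 33.4% of all tested genes.

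The Adamts-like proteins bind fibrillin microfibrils and related matrix. Adamtsl4 was at 1.8, 2.34 and 2.43 CPM in the 18 mo group, at 1.94, 5.17 and 19.5 in the 21 mo mice and at 2.56, 2.03 and 2.04 in the 21 mo/O304 group. Its 18 mo and treated levels overlapped closely, and the log2 fold changes were 2.02 ± 0.69 (SE) in 21 mo against 18 mo and −2.01 ± 0.69 in 21 mo/O304 against 21 mo, with edgeR adjusted p of 0.119 and 0.188. Without 21 mo-3 these were 0.68 and −0.68. Adamtsl1 was at 3.1, 1.97 and 3.05 CPM in the 18 mo group, at 2.07, 4.6 and 9.94 in the 21 mo mice and at 1.22, 2.62 and 3.06 in the 21 mo/O304 group. Adamtsl5 was at 1.98, 1.29 and 1.98 CPM, at 0.87, 2.67 and 12.1, and at 0.465, 0.715 and 1.97. Both had their highest values in 21 mo-2 and 21 mo-3. Adamtsl2, the most abundant of these by FPKM and a regulator of microfibrils, was at 20.9, 30.4 and 38.3 CPM in the 18 mo group, at 20.3, 29 and 56.3 in the 21 mo mice and at 32.3, 29.4 and 24.6 in the 21 mo/O304 group, all overlapping.

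Lox, the founding lysyl oxidase, was at 2.54, 1.85 and 2.32 CPM in the 18 mo group, at 4.95, 12.8 and 106 in the 21 mo mice and at 3.37, 3.4 and 8.98 in the 21 mo/O304 group. Both older groups lay entirely above the 18 mo group, and the treated group overlapped the 21 mo group through 21 mo-1. For Lox the log2 fold change was 4.21 ± 1.07 (SE) in 21 mo against 18 mo, with an edgeR adjusted p of 0.0775, and 1.97 without 21 mo-3. In 21 mo/O304 against 21 mo it was −2.98 ± 0.99, with an edgeR adjusted p of 0.183, and −0.75 without 21 mo-3. Loxl2, which crosslinks basement membrane collagen, was at 5.7, 7.95 and 7.24 CPM in the 18 mo group, at 5.62, 15.9 and 43.7 in the 21 mo mice and at 6.05, 6.73 and 5.6 in the 21 mo/O304 group. As for Mmp14, 21 mo-1 was below the 18 mo libraries and the other 21 mo libraries were above them. The log2 fold change was 1.65 ± 0.59 (SE) in 21 mo against 18 mo and −1.83 ± 0.59 in 21 mo/O304 against 21 mo, with edgeR adjusted p of 0.127 and 0.181, and was 0.61 and −0.81 without 21 mo-3.

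Loxl1, which serves elastic fibres and was the most abundant lysyl oxidase by FPKM in 8 of 9 libraries, was at 16.4, 25.6 and 35.4 CPM in the 18 mo group, at 10.1, 23.5 and 56.4 in the 21 mo mice and at 9.77, 19.6 and 22.2 in the 21 mo/O304 group. Loxl3 was at 3.59, 3.2 and 2.89 CPM, at 1.87, 4.26 and 13.7, and at 1.92, 3.4 and 2.36. Loxl1 and Loxl3 overlapped between all groups. Loxl4 was at 3.53, 1.66 and 2.72 CPM in the 18 mo group, at 4.35, 5.74 and 6.73 in the 21 mo mice and at 3.78, 0.715 and 0.7 in the 21 mo/O304 group. All 21 mo libraries exceeded all others for Loxl4, 21 mo-1 included, while 1 treated library was close to it and the other treated libraries were the lowest of the 9. The log2 fold change was 1.09 ± 0.62 (SE) in 21 mo against 18 mo and −1.69 ± 0.63 in 21 mo/O304 against 21 mo, with edgeR adjusted p of 0.288 and 0.201. In the make-up of the family by FPKM, Lox was 3.49% to 6.45% at 18 mo, 15.7%, 17.7% and 42.6% in the 21 mo libraries and 8.02% to 18.1% in the 21 mo/O304 group. The share of Lox was thus above the 18 mo range in all 6 libraries of older mice, 21 mo-1 included.

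In 21 mo/O304 against 18 mo, where the strongly deviating 21 mo libraries take no part except in the shared estimate of spread, the median log2 fold change of the 38 genes was −0.24 beside 0 over all tested genes, with 13 positive and 25 negative. No gene was higher and 1 was lower (Adamts14) at an unadjusted p under 0.05 in edgeR, against 4.33% and 5.33% of all genes. Limma voom called Adamts14 alone, among 2.61% of all genes, and DESeq2 called none, among 0.869% of the 14503 genes to which it gave an adjusted p. The groups did not overlap for 3 higher genes (Mmp3, Mmp19 and Lox) and 5 lower genes (Mmp14, Mmp17, Adamts1, Adamts9 and Adamts14), against 13.2% and 13.3% of all tested genes.

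Genes that work beside these families were taken from 4 lists of 88 genes, of which 78 were tested. None passed the adjusted threshold in edgeR in any comparison. At an unadjusted p under 0.05, 29 were higher and 3 lower in 21 mo against 18 mo, where 14% and 12% of all tested genes were. In 21 mo/O304 against 21 mo, 1 was higher and 33 lower, beside 8.27% and 12.4%. Without 21 mo-3 these counts were 11 and 5, then 3 and 16. The median log2 fold changes were 0.66 and −0.83, and 0.21 and −0.27 without 21 mo-3. Limma voom called 48 and 46 of the 78, beside 52.9% and 41.1% of all tested genes. DESeq2 called 20 and 19, beside 12.3% and 6.07% of the genes to which it gave an adjusted p. Among the 24 tested substrates and fibril partners, 22 had a positive log2 fold change in the first comparison and 22 a negative one in the second. This list shares Col1a1, Col3a1, Dcn, Lum and Postn with the fibroblast markers. The other lists were less one-sided. Positive in the first comparison were 9 of 13 genes of activation and the plasminogen system, 15 of 22 other proteases and 13 of 19 collagen-modifying and crosslinking enzymes. Negative in the second were 9, 17 and 14. Spp1, the matrix protein osteopontin, was at 742, 646 and 614 CPM in the 18 mo group, at 1235, 11162 and 12555 in the 21 mo mice and at 1002, 649 and 676 in the 21 mo/O304 group. Col3a1, a fibrillar collagen chain that Adamts2 trims, was at 41.8, 50.1 and 61.7 CPM, at 29.7, 265 and 567, and at 22.4, 33.7 and 39.7. Of the 13 tested genes of activation and the plasminogen system, Plaur, the receptor of urokinase, was at 7.06, 4.07 and 7.35 CPM, at 6.96, 13 and 25.6, and at 3.49, 4.89 and 4.52. Of the 22 tested other proteases, Ctss, the cathepsin S of macrophages, had the smallest adjusted p in 21 mo against 18 mo (0.0631 in edgeR), at 40.6, 32 and 45.1 CPM against 99.1, 103 and 371, and was at 54.2, 81.9 and 57.9 in the 21 mo/O304 group. Bmp1, which removes the carboxy-terminal propeptide of collagens and activates Lox, was at 15.3, 11 and 12.2 CPM, at 13, 23.3 and 52.6, and at 8.9, 7.87 and 8.66. Of the 19 tested collagen-modifying and crosslinking enzymes, Plod2, a lysyl hydroxylase, was at 44.4, 39.4 and 29.5 CPM, at 54.9, 49.7 and 49.4, and at 35.6, 30.9 and 26.5, with no single 21 mo library apart. Tgm1, of the same list, went the other way, at 39.6, 59.4 and 31.5 CPM, at 15.5, 23.2 and 13.7, and at 49.1, 56.3 and 21.

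Across the 9 libraries, log2 CPM of 29 of the 38 genes had a Pearson correlation over 0.5 with the summed fibroblast markers, 26 with the macrophage markers and 28 with the injured tubule markers, while 27 had one under −0.5 with the proximal tubule markers. Without 21 mo-3 these numbers were 20, 5, 14 and 15 over 8 libraries. The points share library, group and cell composition, and the values describe these libraries only. The share of all tested genes with such correlations was not computed, so these counts cannot be read as a trait of these genes. The part of these markers in the differences above was not tested.

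Of the 55 genes, 17 had too few reads to be tested, and 8 of these stayed under 10 counts in every library. Mmp21 and Adamts19 had no count in any library. Mmp1b, Adamts13, which cuts von Willebrand factor, Adamts18, Mmp20, Adamts20 and Mmp16 had at most 1, 3, 2, 5, 5 and 7 counts in a library. Mmp24, Mmp27, Adamts17, Adamtsl3, Adamts8 and Adamts3 reached 11, 13, 14, 15, 19 and 20 counts, Timp4 30, Mmp8 57 and Mmp10 90. Timp4, an inhibitor known from heart and fat, was highest in the first 21 mo/O304 library at 1.74 CPM, against 0.238 and 0.382 in the other treated libraries and at most 0.183 in the 6 untreated libraries. The 5 adipocyte markers summed to 60.8, 6.91 and 35.5 CPM in the treated libraries and to 0.739 to 7.28 in the others, and their part in the Timp4 level was not tested. Adamtsl3 was likewise higher in all treated libraries, at 0.872, 0.536 and 0.509 CPM, than in the others, where it was at 0.366 or less. Its counts were 15, 9 and 8 in the treated libraries and 8 in 21 mo-3. Those of Timp4 were 30, 4 and 6, and 4 in 21 mo-3. For both genes the separation from 21 mo-3 thus turned on the scaling of equal counts. Of all tested genes, 10.8% were higher without overlap in the treated group against 21 mo and 13.2% against 18 mo.

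All 55 genes overlapped a RefSeq gene (GRCm38.p6) of the same symbol on the same chromosome. In the authors' table, 26 of the 55, and 17 of the 38 tested, overlap another gene. Timp3, Timp1 and Timp4 lie inside or across genes of the synapsin family (Syn3, Syn1 and Syn2), Mmp12 overlaps Mmp1b, Mmp11 overlaps Chchd10 and Loxl3 overlaps Htra2. These overlaps are of whole gene spans, and exons were not compared. Whether reads were counted by strand is not given in the sources used here, so how far such pairs share reads was not determined.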

How the data were processed

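Kidney RNA of 9 libraries, 3 a group, was sequenced by the authors from separate mice as far as the study's methods say; the labels do not name the animals, so p-values measure the spread between these libraries. The authors aligned filtered paired-end reads with HISAT2 2.0.5 and made gene counts with featureCounts 1.5.0-p3 (versions from the submitters' processing notes, which name GRCm38 and mm10). The gene counts deposited are raw whole numbers. FPKM were derived by the authors from each count and the gene's length. The authors' table also holds mean normalized counts (a signal of a group), log2 fold changes and p-values of their own comparisons by DESeq2 1.20.0, which were not used. Strandedness is not given in the sources used here.

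Counts were analysed in R 4.3.3 with edgeR 4.0.16. Genes were kept by filterByExpr (minimum count 10, minimum total 15), normalized by TMM and tested with the quasi-likelihood test in a model of 3 group means over 9 libraries (6 residual degrees of freedom). All tests were two-sided, with Benjamini-Hochberg adjustment over the 15902 genes tested and a threshold of 0.05. CPM are TMM-normalized, and a prior count of 2 was used for log2 CPM. A group with at most 3 counts in every library was taken as at the floor. An exact permutation test of 3 against 3 libraries cannot go below 0.1, so none is printed. Depth was 15636378 to 18396725 counts, and intervals other than SE are not given.

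Values in every library are given for all tested genes. The fixed rule asked for all tested Mmp, Timp and Lox family genes and for Adamts genes that passed in edgeR or voom, had the 5 smallest p in a comparison or the 3 highest mean FPKM, and the remaining Adamts genes were added after their values were seen. The rule also drew up to 4 genes with the smallest p from each list of companion genes, of which some are named. Members and lists were chosen with earlier results of these data known. Libraries were treated as unpaired. Correlations of same-numbered libraries' deviations ran from −0.13 to 0.17, with 5 of 9 over 0.1. Differently numbered libraries were not compared, so whether replicate numbers pair libraries was not settled. Scripts were tested on simulated data. Alternatives were DESeq2 1.42.0 on all or 6 libraries (the latter added after seeing the data), limma 3.58.1 (voom with quality weights, and trend on log2(FPKM + 1) at a mean FPKM of at least 0.5), upper-quartile normalization, other filters, only the 6 libraries compared, a replicate block, and each library left out. Results that need a withheld item are not reported here.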

Additional observations from a re-analysis of the deposited data

How the results depend on the processing

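The spread of the 21 mo group (biological coefficient of variation 44.2%) is the main limit. Counts of genes past the threshold are given for 21 mo against 18 mo first, then for the treated group against 21 mo and, last, against 18 mo. Over all genes edgeR called 3, 0 and 0, and among the 38 genes and the 78 companion genes none. DESeq2 called 9, 8 and 0 members, 20, 19 and 0 companion genes, and 2059, 947 and 126 genes in all. DESeq2 on the 6 libraries compared, added after seeing the data, called 4, 5 and 2 members, 13, 12 and 8 companion genes, and 1027, 469 and 793 in all. Voom with quality weights called 20, 18 and 1 members, 48, 46 and 0 companion genes, and 8409, 6528 and 415 in all. An unadjusted p under 0.05 called 14, 17 and 1 members, 32, 34 and 2 companion genes, and 4147, 3289 and 1536 in all. With every gene of at least 1 count, 3 members and 3 companion genes passed in the first comparison, and 576 and 17 genes in all in the first and second. With only the 6 libraries compared, the counts over all genes were 0 in the first and 22 in the third. The replicate block gave 0 genes in all in the first comparison in place of 3. It called no member and changed no other of these counts. Whether the numbers pair the libraries was not settled.

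Leaving out 1 library in turn, members called ran from 0 to 19, 0 to 20 and 0 to 0, companion genes from 0 to 40, 0 to 44 and 0 to 0, and all genes from 0 to 4186, 0 to 3808 and 0 to 12. The highest of these in the first and second comparison came without 21 mo-1, and without any other library no member was called. Upper-quartile normalization, at least 10 counts in every library and limma-trend on FPKM called no member. Log2 fold changes were followed across these settings for the genes with an unadjusted p under 0.05, for Mmp13 in the first and second comparison and for Loxl4 in the first. Of these, Mmp13 in the first comparison reversed its sign, from 0.34 to −0.89 with voom and to −0.18 without 21 mo-1 (range −0.18 to 1.12 leaving out 1 library in turn). Over all 38 genes, 31, 28 and 38 kept their sign without 21 mo-3, and 34, 34 and 37 with voom. At 1 count worth 0.0458 CPM or more, levels under about 10 counts carry little information.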
